A study of Drosophila melanogaster with 18 samples.

Results

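The baseline state of the adult fly head was described from 6 of the series' 18 samples, the naive pools of Drosophila melanogaster that received humidified air and no ethanol. The study asked how fly heads respond to ethanol vapor, and its remaining samples, from flies given 1 or 5 exposures, were not used here. Each naive pool held about 60 whole heads of Canton-S flies, a wild-type laboratory strain, aged 2 to 5 days, kept at 25 °C and 60% relative humidity with 12 h of light and 12 h of dark. The flies breathed humidified air at 30 ml/min for 50 min and were frozen in liquid nitrogen, after which a sieve parted heads from bodies and total RNA was labelled for an Affymetrix array. The labels give no sex, so the share of females in a pool is unknown here. A pool of whole heads measures every tissue at once, and in such bulk RNA fewer cells of a type and less RNA per cell cannot be told apart.

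A fly head is dominated by its compound eyes and its brain, and it also holds fat body, muscle of the mouthparts and antennae, trachea, blood cells and a hard cuticle. The eye contributes the phototransduction machinery, in which rhodopsin, a phospholipase cascade and TRP channels turn light into current, and arrestins shut rhodopsin off. The fat body plays the roles of liver and adipose tissue: it stores lipid, secretes yolk and serum proteins and, on infection, releases antimicrobial peptides under the Toll and Imd pathways.

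The array carried 10844 genes that could be named by 1 symbol, each represented by whichever of its probe sets was brightest on average in the 6 naive arrays. A gene was called well-expressed where its mean deposited intensity was 100 or more, which 6820 genes, or 62.9%, met. It was called bright at a mean of 2000 or more, met by 146 genes, or 1.35% of the named genes. It was called variable where the standard deviation (SD) of its log2 intensity over the 6 arrays was 0.3 or more, met by 65 genes, or 0.953% of the well-expressed ones. Both sets are descriptions of 1 group, so nothing was tested and no p-value is given. Intensity depends on each probe set's affinity for its target, so the order below is one of brightness on this array and not of transcript copies. A further 1523 probe sets had several symbols or none, and 19 of them were brighter than the 30th named gene.

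The 6 arrays were close to each other, with median intensities of 125 to 128 and a mean Pearson correlation of log2 intensity with the other 5 arrays of 0.980 for naive 5 and 0.987 to 0.990 for the others. No pair was a duplicate: the SD of the log2 difference between 2 arrays ran from 0.120 to 0.230. Naive 5 stood apart. It alone carried 36.3% of the squared deviation of well-expressed genes from their means, against 9.12% to 17.4% for each other array. Its bacterial spike-in control BioB read 9.55 on the log2 scale against 8.27 to 8.61, BioC read 10.34 against 9.26 to 9.70, and its GAPDH 3' to 5' log2 ratio was 0.87 against 1.19 to 1.54. The other 3' to 5' ratios differed in direction. For actin naive 5 was highest, at 2.10 against 1.88 to 2.07, and for 18S rRNA lowest, at -3.42 against -3.33 to -2.39. For eIF-4a it lay inside the range of the others, at 0.45 against 0.36 to 0.67. The part of these technical differences in the results below was not tested, and the variable genes are therefore also given without naive 5.

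An intensity of 100 does not by itself show that a gene is active in the head. Of the markers measured, 11 of 30 for the testis, 5 of 24 for the accessory gland and 18 of 34 for ovary and eggshell passed it, against 62.9% of all named genes. Several defining ones read low, with mean intensities of 21.9 for betaTub85D (a testis tubulin), 15.2 for dj, 4.34 for ProtB (a sperm protamine), 9.53 for Acp26Aa and 6.71 for Acp76A (both seminal fluid proteins). Other members of the same lists read higher: the testis list genes Mst98Ca and Mst84Da averaged 537 and 383, and EbpIII of the accessory gland list 5050. The testis list also holds the tubulin gene alphaTub84D, at 920, so a list member need not be confined to its organ. The eggshell gene Cp16 averaged 528 and Cp36 averaged 416, so some genes known from tissues outside the head also passed the level. The neuronal RNA-binding gene elav averaged 76.0 and did not pass it, while the synaptic gene nSyb averaged 717 and the glial transcription factor repo averaged 197. The opsin ninaE, Rh3 to Rh6, Act5C, eEF1alpha1 and Hsp70Aa lacked a probe set named for them alone and are not described.

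The 3 brightest genes were the yolk protein genes, which the adult female fat body and ovary express. Yp1 read 12001, 11243, 11164, 11837, 11218 and 11811 in naive 1 to naive 6, a mean of 11546 ± 376 (SD, n = 6). Yp2 averaged 11312 ± 371 and Yp3 10293 ± 361. All 6 pools lay within 1.09-fold of each other for each of the 3 genes, and the highest intensity on each of the 6 arrays was that of Yp1 or Yp2, so these probe sets sat at the top of the scale. Of the 4 female-biased head genes, fit included, 3 were highest in naive 1, against 8.53% of all well-expressed genes. The gene fit, a satiety peptide of the fat body, averaged 2544 ± 368 and was lowest in naive 6 at 1909. Among genes known to be male-biased in the head, sxe2, a lipase, averaged 601 ± 106 and Obp99b 442 ± 140, and both were highest in naive 3.

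**Figure D1:**
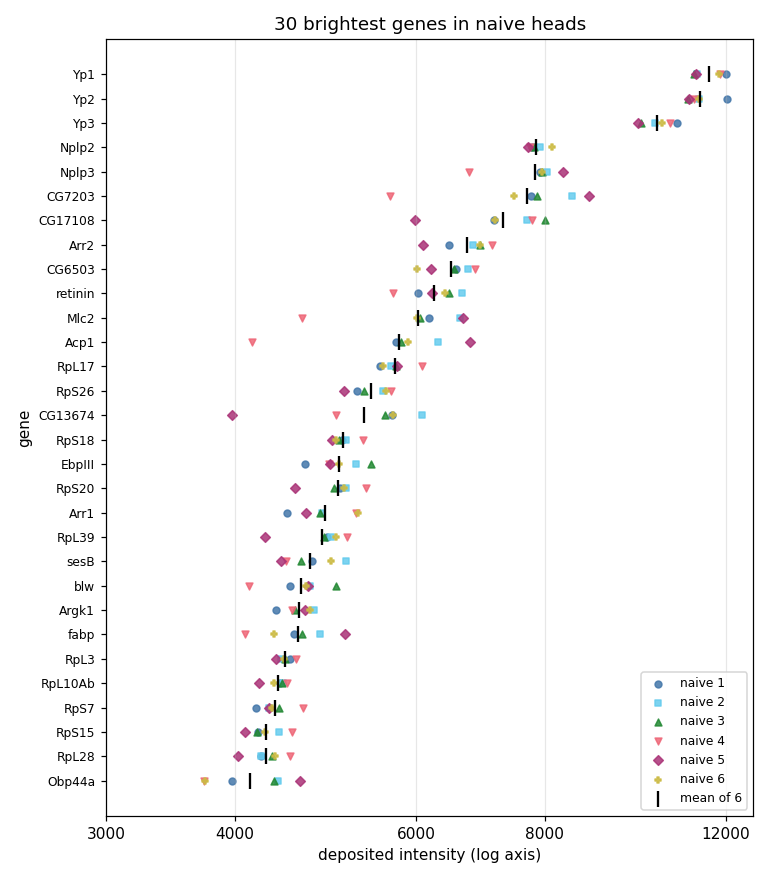
Deposited intensity (log axis) of the 30 brightest named genes, 1 row a gene, with 1 symbol for each of the 6 naive arrays and a black bar at their mean. Yp1, Yp2 and Yp3 lie to the right of all others on every array, and CG7203, Mlc2 and Acp1 show naive 4 well to the left of the others.

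Phototransduction genes were often bright too. Of 26 phototransduction genes on the array 6 were bright, or 23.1%, against 1.35% of all named genes. Arr2, the main arrestin of photoreceptors, averaged 6720 ± 376, and Arr1 averaged 4900 ± 305 (SD, n = 6 each). Pdh, a retinol dehydrogenase of the pigment cells, averaged 3920 ± 182. The TRP channel genes trpl and trp averaged 2529 ± 95.9 and 2158 ± 132, and rtp 2328 ± 215. The scaffold inaD at 1458 and the protein kinase C inaC at 1146 fell below the bright level. The corneal lens protein gene retinin averaged 6242 ± 338 and spread over 1.16-fold. It stands in the separate list of eye structure and pigment genes, of which 2 of 30 were bright, or 6.67%. Of 24 well-expressed phototransduction genes 0 were variable, a count that the background share of 0.953% would also give, and the list's median SD of log2 was 0.087, against 0.089 over all well-expressed genes. The 2 widest members were Cds at 0.29, the CDP-diglyceride synthase that regenerates phosphoinositides, and Calx at 0.28, a sodium-calcium exchanger, and both were lowest in naive 5.

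Genes of protein synthesis and of mitochondrial respiration made up the largest share of the bright set. The brightest cytosolic ribosomal protein genes were RpL17 at 5724 ± 194, RpS26 at 5428 ± 228 and RpS18 at 5098 ± 128. Of 37 such genes on the array 26 were bright, or 70.3%, against 1.35% of all named genes. They were also among the steadiest: RpL3 read 4528, 4439, 4479, 4592, 4384 and 4469, an SD of log2 of 0.023, and the list's median SD was 0.060. Of 71 oxidative phosphorylation genes 25 were bright, or 35.2%, against the same 1.35%. They included the ADP/ATP carrier sesB at 4735 ± 274, the ATP synthase alpha subunit blw at 4636 ± 295 and the cytochrome c oxidase subunit COX4 at 4042 ± 137. Of 11 glycolysis genes 4 were bright, or 36.4% against 1.35%, among them the aldolase Ald1 at 4131 ± 186 and Gapdh1 at 3237 ± 207.

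Secreted and structural products of other head tissues followed. The neuropeptide-like precursor genes Nplp2 and Nplp3 averaged 7845 ± 157 and 7825 ± 548, and Nplp4 averaged 2165 ± 111. Nplp2 spread over only 1.05-fold, whereas Nplp3 read 6754 in naive 4 against 7920 to 8343 in the other 5. Among conventional neuropeptides, Pdf, the transmitter of clock neurons, averaged 588 with an SD of log2 of 0.057. Of 48 genes in the odorant-binding protein list 6 were bright, or 12.5%, against 1.35% of all named genes. Among them were EbpIII at 5050 ± 263, Obp44a at 4143 ± 377 and Obp99c at 3820 ± 212. EbpIII is named as a component of the male ejaculatory bulb and not as an odorant-binding protein. It was also the only bright gene of the accessory gland list.

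Fat body genes were both bright and, in part, unsteady. Of 25 measured, 5 were bright, or 20%, against 1.35% of all named genes. They were the iron carrier Tsf1 at 3635 ± 387, the ferritin subunits Fer2LCH at 3115 ± 160 and Fer1HCH at 2290 ± 136, the storage protein Lsp2 at 2927 ± 651 and the lipid carrier apolpp at 2851 ± 284. Glutamine synthetase 2, Gs2, which recycles glutamate in glia, averaged 4067 ± 251. Muscle genes contributed 6 of 30, or 20% against the same 1.35%. Among these were the myosin light chain Mlc2 at 6031 ± 733 and the arginine kinase Argk1, which buffers ATP in muscle and brain, at 4619 ± 141. Argk1 spread over 1.09-fold and Mlc2 over 1.43-fold, although both stand in the same list.

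The spread of bright genes was close to that of all well-expressed genes: their SD of log2 had a median of 0.083, against 0.089. Of the 146, 48 read lowest in naive 4, against 14.6% of all well-expressed genes, and 30 read highest in naive 2, against 15.9%. Only 13 read lowest in naive 2, against 14.9%. CG8736 and Lsp2 were both bright and variable, 2 of 146, a share near the 0.953% of all well-expressed genes. Lsp2, a larval serum protein also made by the adult fat body, read 2874, 3456, 3817, 2489, 2923 and 2003 in naive 1 to naive 6, an SD of log2 of 0.33. Its lowest value, in naive 6, and its highest, in naive 3, differed 1.91-fold. The identity of a few bright genes is uncertain, because 7 of the 146, or 4.79%, rest on probe sets with the suffix the array's maker gave to families of similar sequences, against 0.367% of well-expressed genes. They are Act87E, CG34347, dpr3, LysB, mam, rut and Ubi-p5E, named after their values were seen. Of these, rut, mam, CG34347 and dpr3 all read lowest in naive 2, and their log2 intensities correlated over the 6 arrays with r of 0.92 to 0.98. The adenylyl cyclase gene rut, known for its part in olfactory learning, averaged 3008 ± 399 and the Notch coactivator gene mam 2290 ± 242, values that may include RNA of other family members.

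The spread between pools was small for most genes. Over the 6820 well-expressed genes the SD of log2 had a median of 0.089, with a 5th percentile of 0.040 and a 95th of 0.203. The median depended little on brightness: it was 0.088 between intensities of 100 and 200, 0.104 between 1000 and 2000, and 0.083 at 2000 and above. The share of variable genes differed more. It was 0.838% of 3341 genes between 100 and 200, 3% of 200 genes between 1000 and 2000, and 1.37% of the 146 bright genes. Among the 5 steadiest genes were Rab35, a small GTPase of membrane traffic, which lay within 1.02-fold over the 6 pools, and Clamp, a chromatin factor of dosage compensation, within 1.03-fold. The 5 had low means, from 104 for naz to 136 for Clamp, not far above the level of 100. For naz, the steadiest, another probe set had an SD of 0.124. Of the genes nearest the limit, CG9837 had an SD of 0.301 and eIF4G1 one of 0.299.

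**Figure D2:**
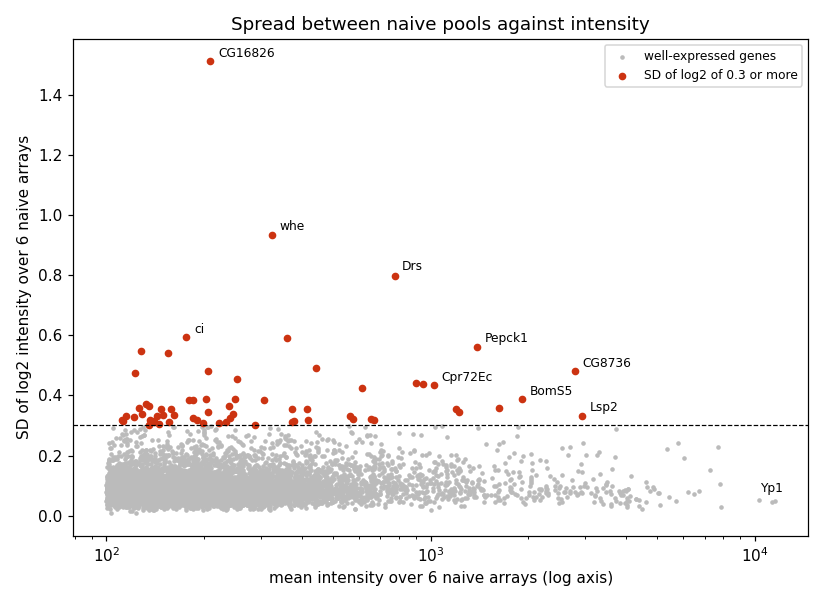
SD of log2 intensity over the 6 naive arrays against mean intensity (log axis) for the 6820 well-expressed genes in grey, with the 65 genes at 0.3 or more (dashed line) in red. CG16826, whe and Drs stand highest at 1.51, 0.93 and 0.80, and Yp1 lies at the right edge near the bottom.

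The 3 most variable genes shared a pattern in which naive 5 was highest and naive 6 next. CG16826 read 38.4, 47.3, 139, 140, 627 and 264 in naive 1 to naive 6, a 16.3-fold range and an SD of log2 of 1.51. Its mean of 209 was raised by naive 5 and naive 6, and its median was 140. The values of naive 1 and naive 2 lay below the level of 100 set for well-expressed genes. Log2 was taken with no floor, so the range and the SD of CG16826 rest in part on low readings. A 95% interval of that SD that assumes normal log2 values runs from 0.94 to 3.71, so 6 pools fix a spread only loosely. The gene whe read 141, 141, 229, 278, 772 and 384, an SD of 0.93, and its log2 intensity correlated with that of CG16826 with r = 0.98 over the 6 arrays, which share the pools and the normalization. Drs, which encodes the antifungal peptide drosomycin and is a standard readout of the Toll pathway, read 539, 348, 564, 522, 1458 and 1213, an SD of 0.80. Naive 5 and naive 6 lay far above the other 4 pools, whose highest value was 564. By the measure of likeness used, the variable genes most like CG16826 were whe, Drs (r = 0.88) and BomS5 (r = 0.87). Those most like Drs were BomS5 (r = 0.95), LRR (r = 0.92) and whe (r = 0.90). The 2 arrays in which Drs lay farthest from its median were naive 5 and naive 6. Over the 4 arrays left, its r was 0.82 with BomS5, 0.39 with LRR and 0.53 with whe. For CG16826 and whe the 2 farthest arrays were naive 5 and naive 1, so the high value of naive 6 stayed in. Over the 4 left, r of CG16826 was 0.98 with whe, 0.93 with Drs and 0.93 with BomS5, and r of whe with Drs was 0.92. These last values therefore do not show whether the likeness holds apart from naive 5 and naive 6. Each r rests on 4 arrays and on partners picked for a high r, so none fixes a relation.

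Among lists with 5 or more well-expressed members, the immune genes had the highest median spread. Of 28 well-expressed members 7 were variable, or 25%, against 0.953% of all well-expressed genes, and their median SD of log2 was 0.192 against 0.089. The 7 were Drs, Mtk, BomS5, BomS2, BomBc3, DptB and Diedel. BomS5, a short bomanin peptide induced by Toll signalling, read 1548, 1343, 1654, 1810, 2441 and 2678 in naive 1 to naive 6. Mtk, the antimicrobial peptide metchnikowin, read 483, 453, 631, 447, 774 and 889. DptB, a diptericin controlled by the Imd pathway, read 294, 377, 329, 295, 467 and 476. In all 3 the values of naive 5 and naive 6 lay above those of the other 4 pools.

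Naive 6 was the pool in which 13 of the 28 immune genes were highest, against 12.8% of all well-expressed genes. Counted after the values were seen, naive 5 and naive 6 held the 2 highest values for 6 of the 28, against 4.27% of all well-expressed genes. Among these was BomBc3, which read 1290 and 1816 in naive 5 and naive 6 and at most 1240 elsewhere. Outside the list, Bbd, whose product is needed for bomanin peptides to act, read 1188, 1327, 1415, 1531, 1994 and 2272, with the same 2 pools on top. Other members went otherwise. BomS2, encoded near BomS5, was highest in naive 6 at 421 but read 275 in naive 5, and r between BomS2 and BomS5 was 0.38. Diedel, a secreted modulator of immune signalling, read 353 in naive 1 against 204 to 217 in the other 5. The bomanin genes BomS6 at 2661 ± 366 and BomT2 at 2035 ± 183 were bright, and BomS6 was lowest in naive 5 at 2087. Of 10 well-expressed blood cell markers 3 were highest in naive 5 and 0 in naive 6, against 24% and 12.8% of all well-expressed genes, so neither count stands apart from the background. Their summed intensity ran from 3313 to 3809 over the pools. Of the 10, 1 was variable, against 0.953% of all: NimC4, a receptor for uptake of dying cells, which was highest in naive 5 at 187 and lowest in naive 4 at 89.1.

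**Figure D3:**
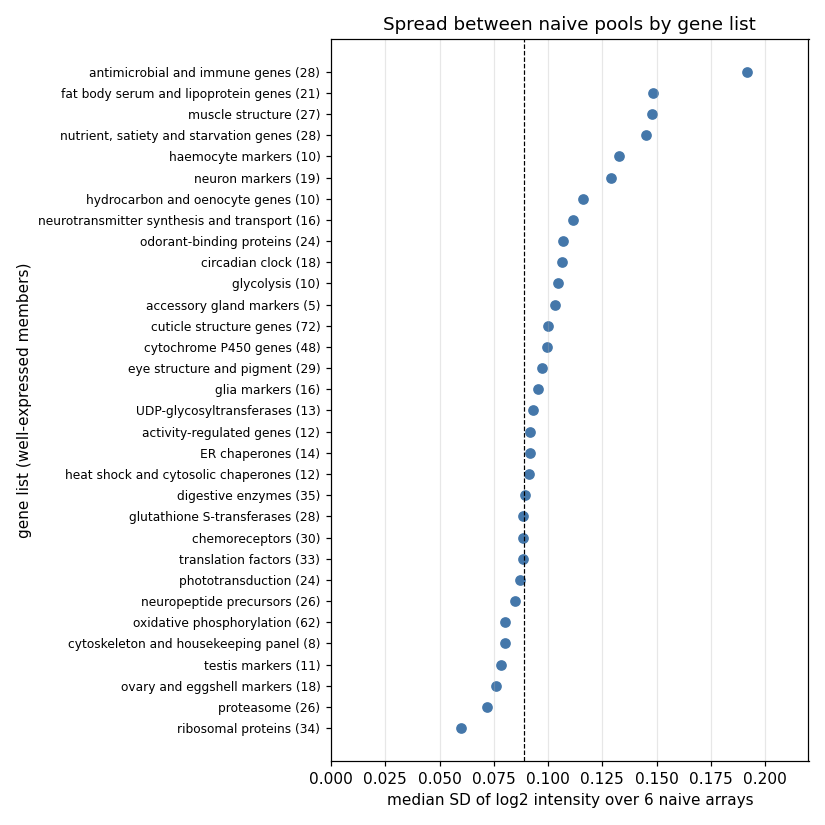
Median SD of log2 intensity over the 6 naive arrays for each gene list with 5 or more well-expressed members (number in brackets), with a dashed line at 0.089, the median over all well-expressed genes. Immune genes lie farthest right at 0.192 and ribosomal protein genes farthest left at 0.060.

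Variable genes were also found in the fat body and nutrient lists. Of 21 well-expressed fat body genes 4 were variable, or 19%, namely Lsp2, Obp99b, Desat1 and Lsd-2, and of 28 nutrient and starvation genes 3 were, or 10.7%, against 0.953% of all. The 2 lists share members, and their variable genes include a storage protein and an odorant-binding protein as well as metabolic enzymes. Of 10 glycolysis genes 0 were variable, a count that the background share would also give. Their median SD of log2 was 0.105, and 8 of the 10 lay above the median of all well-expressed genes. Pepck1, the enzyme that commits carbon to gluconeogenesis, read 1254, 1080, 1422, 2255, 708 and 1602 in naive 1 to naive 6, an SD of log2 of 0.56. Desat1, the acyl-CoA desaturase of pheromone and membrane lipid synthesis, read 919, 1018, 810, 1280, 537 and 1112. Lsd-2, a perilipin that coats lipid droplets, read 664, 561, 679, 845, 445 and 738. All 3 were highest in naive 4 and lowest in naive 5. The other perilipin, Lsd-1, was less variable at an SD of 0.21 and was lowest in naive 6, and the lipase gene bmm had an SD of 0.23 and was lowest in naive 5 at 304. The alpha-glucosidase gene tobi, a target of insulin-like signals, read 355, 407, 508, 348, 383 and 240, lowest in naive 6. The glycogen phosphorylase gene Glyp, just below the limit with an SD of 0.296, was lowest in naive 4 at 1354 and highest in naive 5 at 2425, the opposite of Pepck1. The gene phu read 371, 471, 360, 208, 544 and 204, so naive 4 and naive 6 were low and naive 5 high.

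Naive 5 was the array farthest from the other 5 for 39 of the 65 variable genes, or 60%, against 37.4% of all well-expressed genes, and in 30 of those 39 it was the low one. The 65 were picked by their SD over these same arrays, and naive 5 carried the most deviation. A share above that of all genes is therefore partly built in by the selection. Naive 5 held the lowest value of 33 of the 65, against 31.5% of all well-expressed genes. The transcription factor gene ci of the Hedgehog pathway read 79.0 in naive 5 against 152 to 268 in the other pools. The Fos-type factor kay read 78.6 in naive 5 against 129 to 160 elsewhere. The mitofusin gene Marf, needed for mitochondrial fusion, read 244 in naive 5 against 376 to 439, and the prohormone convertase gene amon read 119 against 154 to 237. Without naive 5 the number of variable genes was 35, of which 31 were among the 65, and 17 of the 30 most variable genes remained.

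**Figure D4:**
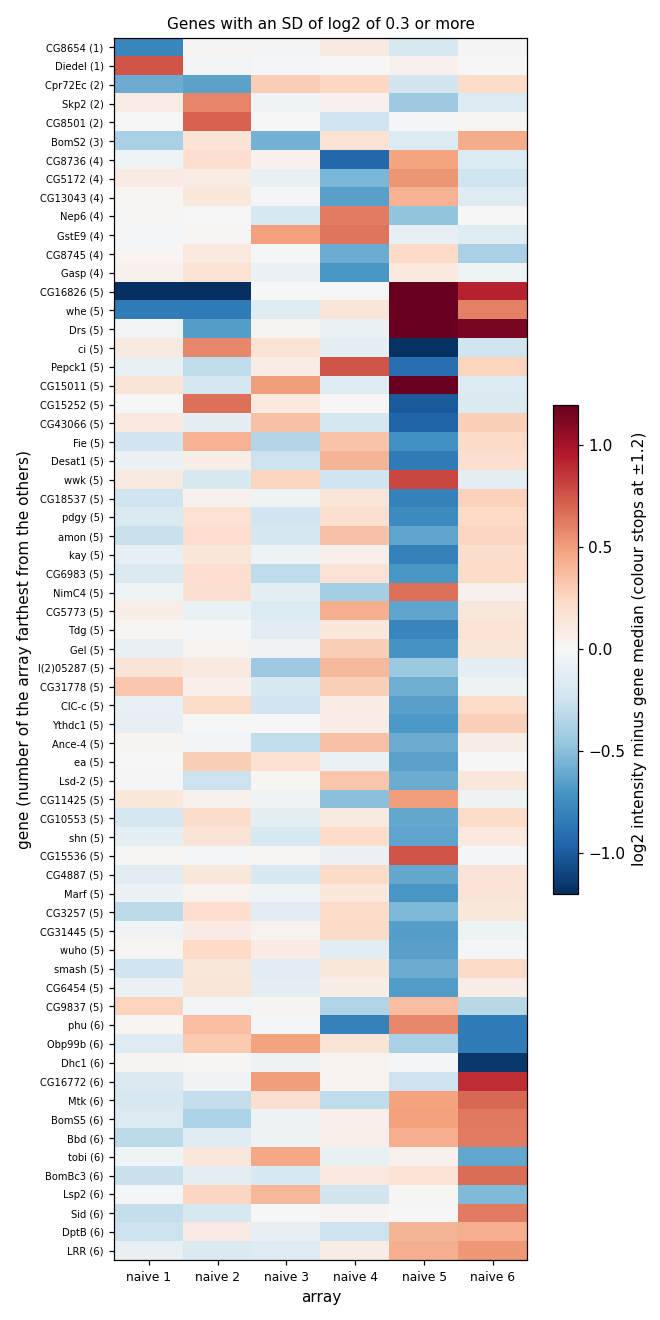
Log2 intensity minus the gene's median in each naive array (columns, naive 1 to naive 6) for the 65 variable genes (rows, grouped by the array farthest from the others), blue for lower and red for higher. The largest block belongs to naive 5, with 30 genes low and 9 high.

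Some genes varied through a single pool. Dhc1, a dynein heavy chain gene, read 60.4 in naive 6 against 129 to 139 in the other 5, and its SD of log2 was 0.48. The corneal lens gene Cpr72Ec split the pools: it read 1313, 1273 and 1247 in naive 3, naive 4 and naive 6, against 709, 684 and 918 in naive 1, naive 2 and naive 5. Of 18 well-expressed genes in the clock list 1 was variable, kay, against 0.953% of all well-expressed genes, and the list's median SD of log2 was 0.107 against 0.089. Among the core clock genes, per averaged 179 with an SD of 0.056, below that median, while tim averaged 218 with 0.11 and Clk 106 with 0.12, above it. The pools lay within 1.11-fold for per and 1.23-fold for tim.

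Naive 4 was the pool with the least muscle RNA signal. Of 27 well-expressed muscle genes 19 were lowest there, against 14.6% of all well-expressed genes, and the median deviation from each gene's own median was -0.22 on the log2 scale. The summed intensity of the 30 muscle genes on the array was 29328 in naive 4 against 35698 to 38606 in the other pools. Prm, the paramyosin of thick filaments, read 938 in naive 4 against 1379 to 1691, and Mlc2 read 4650 against 6017 to 6668. Tm2, a tropomyosin, read 452 in naive 4 against 642 to 792, and Act87E, a muscle actin with a family probe set, read 2791 against 3833 to 3916. In each of these 4 genes naive 4 lay below all the other pools.

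Several other lists set naive 4 apart by smaller amounts. Of 62 well-expressed oxidative phosphorylation genes 34 were lowest in naive 4, with a median deviation of -0.085, and of 10 glycolysis genes 6 were, against the same 14.6%. Of 72 cuticle genes 26 were lowest there. The adult cuticle gene Acp1 read 4156 in naive 4 against 5738 to 6770, and 2 nearby bright genes on chromosome 2L followed it: CG7203 read 5662 against 7472 to 8839 and CG7214 read 2484 against 3701 to 4348. Over the 6 arrays the 3 genes correlated pairwise with r of 0.96 to 0.99. CG8736 read 1466 in naive 4 against 2513 to 3913 elsewhere and was the brightest variable gene after Lsp2. The chitin-binding protein gene Gasp read 429 in naive 4 against 664 to 786. Ribosomal protein genes went the other way: 30 of 34 were highest in naive 4, against 20.7% of all well-expressed genes, though the median deviation was only 0.08. Of 33 translation factor genes 17 were highest in naive 4. Any link between these shifts of naive 4 was not tested.

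In naive 5 the order of these lists differed. Of the 72 cuticle genes 37 were highest in naive 5, against 24% of all well-expressed genes, and 31 of the 62 oxidative phosphorylation genes and 11 of the 27 muscle genes were highest there too. Of 33 translation factor genes 18 were lowest in naive 5, against 31.5% of all, with a median deviation of -0.11. Of 48 cytochrome P450 genes, which oxidise lipids, hormones and toxins, 23 were lowest there, with a median deviation of -0.088. Of 26 proteasome subunit genes 16 were lowest in naive 6, against 13.4% of all, with a median deviation of -0.093, and 12 were highest in naive 3, against 18.1% of all. The neuron markers leaned to naive 6, where 7 of 19 were highest against 12.8% of all, with a median deviation of 0.081.

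**Figure D5:**
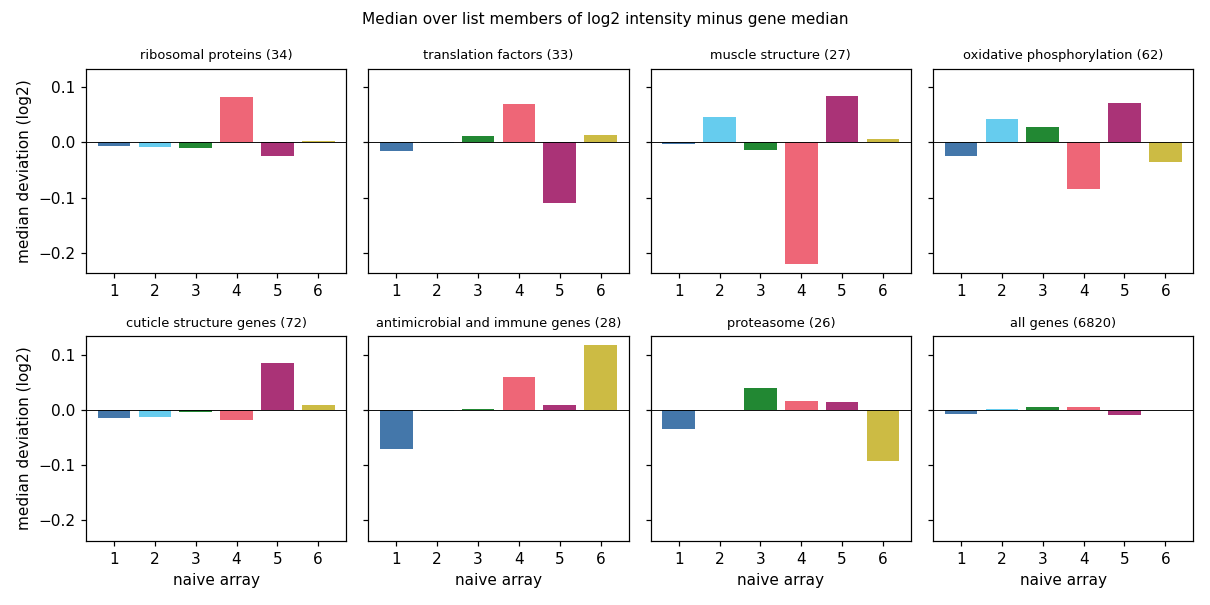
Median over list members of log2 intensity minus the gene's own median, for each naive array (1 to 6) and 8 sets, with the number of well-expressed members in brackets. Muscle genes dip to -0.22 in naive 4 where ribosomal protein genes stand at 0.08, cuticle genes stand at 0.085 in naive 5, and all genes together stay near 0.

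Repeat probe sets of the same gene gave a limited check on the spread. For 569 well-expressed genes a further 705 probe sets were themselves well-expressed, and their median correlation with the chosen one over the 6 arrays was 0.18. Among the 27 such genes with an SD of 0.2 or more the median was 0.56. Vajk2 had 2 others at r = 0.96 and r = 0.95, with mean intensities of 1880 and 1700. The first of these had an SD of 0.42, above the limit of 0.3, where the chosen one had 0.23. Of the 705 probe sets, 7 reached an SD of 0.3, so the choice of probe set bears on which genes were called variable. CG13674, with an SD of 0.22, had another at r = -0.76. Of the variable genes only CG3257 and smash had further well-expressed probe sets, 3 in all, with r of -0.54 for CG3257 and of -0.84 and 0.82 for smash, and none of these reached an SD of 0.3. Most variable genes thus rest on 1 probe set, and 46 of the 65 belonged to none of the 34 lists, as did 44 of the 146 bright genes.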

How the data were processed

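Biotin-labelled RNA from 6 pools of naive heads was measured on Affymetrix arrays of 14010 probe sets, 1 array a pool. The values are intensities in the deposited value table, on a linear scale. The authors' software for summarising and normalizing them was not stated in the labels or the table. The 44 control probe sets were left out of all gene counts. Of the others, 12444 had 1 gene symbol, 327 several and 1239 none in the platform annotation, and symbols were brought up to date through a RefSeq gene table. Where a gene had several probe sets, the one with the highest mean over the 6 arrays stood for it. Values were taken to log2 with no pseudocount or floor. The precision is limited by the number of arrays, and intervals of an SD are 95% chi-square intervals that assume normal log2 values.

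Named were the 30 brightest genes, the 30 most variable, up to 3 brightest and 3 most variable members of each of 34 gene lists, a panel of marker and reference genes, the 5 steadiest genes and the 3 variable genes most like each of the 3 most variable by Pearson correlation. Genes named outside this rule were chosen after their values were seen. Members and lists were chosen with earlier results of these data known, and the cytochrome P450, nutrient, oxidative phosphorylation and digestive enzyme lists were corrected after values had been seen. Alternatives covered normalization, low values, the intensity filter, the measure of spread, the use of every probe set and leaving out each array. The computation used Python 3.11.15, pandas 2.3.3, numpy 2.4.6 and scipy 1.17.1, and was tested on simulated data.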

Additional observations from a re-analysis of the deposited data

Results flagged for a closer look

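For 20 of 221 named genes 1 pool lay far from the other 5. The measure is the gap between the highest or lowest pool and its nearest neighbour divided by the whole range of the 6 pools, and the limit is Dixon's 95% critical value for 6 samples. Chance passes it in about 1 of 20 groups, and genes on the same arrays are not independent. Many of the 221 were named for their brightness or spread in these same values. The ratio was computed for named genes only, so the share over all well-expressed genes is unknown and the count is a description.

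Naive 4 was the low pool for 8 of them, and these were mostly muscle and cuticle genes. The ratio was 0.937 for Act87E, 0.715 for Mlc2, 0.653 for Prm and 0.626 for Tm2, all of muscle. It was 0.721 for Gasp and 0.661 for Acp1, both of cuticle, 0.835 for ND-B14.5AL, named as a complex I subunit, and 0.754 for Nplp3. Naive 5 was low for Cyp4ac1 (0.726), RpL39 (0.723), the elongation factor eEF1gamma (0.723) and kay (0.704), and high for the gustatory receptor gene Gr8a (0.644).

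Naive 6 was low for Dhc1 (0.916) and Obp99c (0.653) and high for the polyubiquitin gene Ubi-p5E (0.711). Naive 2 was high for the deubiquitinase gene Usp8 (0.768) and the collagen IV gene vkg (0.632). Naive 3 was high for Clamp (0.657) and naive 1 for Yp2 (0.719). These last 2 are gaps within very narrow ranges, of 1.03-fold for Clamp and 1.09-fold for Yp2.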

How the results depend on the processing

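The threshold on intensity sets how many genes count. At a mean of 200 or more, the well-expressed genes of naive heads numbered 3479, with 37 variable, 13 of these lowest in naive 5, and 22 cuticle genes were highest in naive 5. With no filter all 10844 genes entered, 147 were variable and 65 of these lowest in naive 5. With 16 added before log2, 21 variable genes were lowest in naive 5, and with every probe set counted 220 were bright. Leaving out 1 array at a time gave 35 to 98 variable genes, the fewest without naive 5 and the most without naive 3, and, with naive 5 kept, 39 to 55 of them lowest in it, the most without naive 1 and 53 without naive 3. The other counts stayed within 1.5 times of those reported under these alternatives. With the median absolute deviation in place of the SD, 15 of the 30 most variable genes remained. Of the SDs of 219 named genes, 77 moved by more than their own error with that measure, 49 without naive 5, 23 without naive 4, 14 with quantile normalization and 13 or fewer under each other alternative that could move them. No paired analysis was possible because 1 group entered and nothing was tested. No detection calls were used, so the intensity of 100 is a rule of level only, and 6 arrays fix an SD loosely.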
